A study of Mus musculus with 32 samples.

Results

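Ribosome-bound RNA of lumbar spinal astrocytes was compared with RNA of the whole lumbar cord, gene by gene, in mice of both sexes. All 24 libraries titled Trap were set against all 8 titled Input, which together are the 32 libraries of the series, so no library was left out. Every mouse carried Aldh1l1-CreER, an inducible Cre recombinase under a promoter active in astrocytes, together with Rpl22-HA, a ribosomal protein that gains an HA tag where Cre has acted. The genotype is written Aldhl1l-CreER;Rpl22-HA in the sample labels. Trap is the RNA that came down with the tag on anti-HA magnetic beads, and Input is RNA of the homogenate. The 8 title groups were females and males, each without injury or at 3, 5 or 7 weeks after fracture, an injury used to model complex regional pain syndrome in mice. Each title group had 3 Trap libraries and 1 Input library. By its column header each male Input library shares a series name with the Trap library numbered 1 of its group. The headers of female Input libraries and female Trap libraries numbered 1 hold a group label and no series name. The other Trap libraries carry other series names, so library type and header series cannot be fully told apart. Headers of female and male Input libraries also differ in form. What the series names stand for is not given in the sources used here. Ages, the drug schedule that activates Cre and the animals behind each library are not given in the sources used here, so the p-values speak only for the spread among the libraries, which may be technical. Tagged ribosomes can also come from any other cell in which the driver was active.

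Astrocytes tile the grey and white matter of the cord. They clear glutamate, GABA and glycine from synapses, take up potassium released by active neurons, move water at the feet they place on vessels, and couple to each other through gap junctions. They feed neurons with lactate and lipid particles, and secrete matrix proteins, protease inhibitors and growth factors. RNA bound to ribosomes is taken as a measure of what is being translated, although antibody pull-down also carries RNA from the homogenate.

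Library totals were 17124034 to 23189228 estimated counts, and a gene at 1 CPM (counts scaled to the library size) rested on at least 15.6 counts in a library, so values near that level carry a large counting error. The 10 genes with most RNA held 12.3% to 15.7% of a Trap library and 5.86% to 7.26% of an Input library. Scaling by TMM (trimmed mean of M values) gave factors of 1.26 to 1.29 to Input and 0.866 to 1.03 to Trap. Male 7 weeks Trap 2 and Female 3 weeks Trap 3 stood farthest from the other Trap libraries, with an SD over genes of 0.392 and 0.262 on the log2 scale. Without both, edgeR called 14040 genes, against 13992 with them.

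edgeR's quasi-likelihood test called 13992 of 15913 genes (87.9%) at a Benjamini-Hochberg adjusted p under 0.05, of which 7058 were higher in Trap (44.4%) and 6934 lower (43.6%). Over 4-fold differences were called for 1408 genes upward (8.85%) and 2707 downward (17.0%). All 24 Trap libraries lay above all 8 Input libraries for 4380 genes (27.5%) and below them for 4625 (29.1%). The median log2 difference of all genes was 0.02. Scaling by library totals alone moved that median to -0.446 and the calls to 4787 higher and 9208 lower, and DESeq2's size factors moved it to -0.0788. Medians of gene groups are therefore read against that of all genes. Each difference compares shares of RNA between pull-down and tissue, in which fewer cells of a type and less RNA per cell cannot be told apart.

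The named markers of astrocytes checked the label. Aldh1l1, a folate enzyme and the source of the Cre driver (ENSMUSG00000030088.15, chromosome 6, 90486427 to 90600203 of GRCm38), had 52.5, 55.5 and 66.2 CPM in Input and 557, 764 and 844 CPM in Trap as lowest, median and highest values. All Trap libraries were above all Input libraries. The fitted log2 difference was 3.70 ± 0.0751 (standard error), with an adjusted p of 1.91e-29. The glutamate carrier Slc1a2 (ENSMUSG00000005089.15, chromosome 2, 102658659 to 102790784) ranged from 1046 to 1603 CPM in Input (median 1298) and from 8099 to 14750 CPM in Trap (median 12606), and the connexin Gja1 (ENSMUSG00000050953.10, chromosome 10, 56377330 to 56402513) from 199 to 298 CPM in Input (median 254) and from 2091 to 3097 CPM in Trap (median 2742). For the water channel Aqp4 the values were 219, 289 and 398 CPM in Input and 1891, 2699.7 and 3074 CPM in Trap. None of these 3 genes overlapped between the library types, and their log2 differences were 3.24 ± 0.118, 3.40 ± 0.0631 and 3.19 ± 0.0884. Of 20 astrocyte markers all were called higher, beside 44.4% of all genes, with a median of 3.30. Their summed level was 74400 to 103000 CPM in Trap against 9420 to 10100 CPM in Input.

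The stretches of 250 bases before the RefSeq start of 3 of these 4 genes are shown because they are the promoters of genes that moved together, the first of them the source of the driver. Capitals mark matches to 10 short motifs searched on both strands, which were the GC box GGGCGG, the TATA box with the letters TATAAA, the nuclear factor I half-site TTGGCA, the nuclear factor I palindrome, the SOX motif AACAAT, the STAT motif TTCNNNGAA, the AP-1 motif TGANTCA, the E-box CACGTG, the cyclic AMP motif TGACGTCA and the TCF/LEF motif CTTTGA. The palindrome can hold the half-site. Sequences are from RefSeq, build GRCm38.p6, all on the plus strand.
Aldh1l1, chr6:90550543-90550792: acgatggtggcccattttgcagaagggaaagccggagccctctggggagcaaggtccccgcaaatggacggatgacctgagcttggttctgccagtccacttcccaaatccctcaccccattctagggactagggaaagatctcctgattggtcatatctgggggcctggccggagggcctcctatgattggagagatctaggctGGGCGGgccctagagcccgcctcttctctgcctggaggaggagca
Slc1a2, chr2:102706188-102706437: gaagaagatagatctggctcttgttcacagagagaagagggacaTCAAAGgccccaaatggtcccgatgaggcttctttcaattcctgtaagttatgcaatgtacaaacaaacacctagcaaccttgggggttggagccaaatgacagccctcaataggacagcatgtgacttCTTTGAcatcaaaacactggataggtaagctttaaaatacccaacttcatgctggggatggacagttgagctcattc
Gja1, chr10:56377050-56377299: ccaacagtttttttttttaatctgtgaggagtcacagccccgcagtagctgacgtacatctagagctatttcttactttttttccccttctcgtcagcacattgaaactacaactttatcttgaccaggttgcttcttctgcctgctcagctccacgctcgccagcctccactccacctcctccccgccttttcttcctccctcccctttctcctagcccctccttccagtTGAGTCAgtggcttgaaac
Aldh1l1 held 1 GC box, Slc1a2 held 2 TCF/LEF matches, 1 on each strand, and Gja1 held 1 AP-1 match. These letters are common in promoters. Of the 11113 tested protein-coding genes with a RefSeq promoter, 63.3% held a GC box, 12.8% a TCF/LEF match and 5.53% an AP-1 match. Among the 928 of them called higher in Trap by over 4-fold the shares were 57.4%, 13.4% and 6.57%, and among the 1760 called lower by over 4-fold 57.7%, 14.4% and 7.44%. The cyclic AMP motif stood in 2.97% of all, 1.19% of the higher and 3.01% of the lower genes, and the nuclear factor I half-site in 12.1%, 15.4% and 12.6%. The other motifs stood in 8.0% (TATA box), 6.54% (SOX), 7.05% (STAT), 9.68% (E-box) and 0.036% (nuclear factor I palindrome) of all these promoters. A match is a string of letters and no evidence of binding.

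Markers of other cells were mostly depleted. Beside 43.6% of all genes, all 16 neuron markers were called lower (median -3.88), as were all 12 of oligodendrocytes (median -2.52). So were all 12 of microglia (median -3.94) and all 11 of endothelial cells (median -2.85). RNA of these cells was reduced and not absent. Summed neuron markers were 340 to 1020 CPM in Trap against 7640 to 8890 CPM, and oligodendrocyte markers 2360 to 5770 CPM against 15900 to 19100 CPM. Microglia markers summed to 54.7 to 78.3 CPM and endothelial markers to 9.69 to 28.4 CPM in Trap. Most markers were still detected there, with the endothelial gene Emcn at 0 in 5 Trap libraries and the ependymal gene Tmem212 at 0 in 18.

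Some marker lists did not follow. All 6 red cell genes were called higher (median 2.35), beside 44.4% of all genes. Their sum of 360 to 2490 CPM in Trap did not overlap the 192 to 323 CPM of Input. Of 7 neutrophil genes 3 were tested and called higher, at a sum of at most 30.4 CPM in Trap. Mural cell markers split, with the receptors Pdgfrb (2.20 ± 0.125) and Notch3 (2.71 ± 0.125) and the actin-binding gene Tagln (2.09 ± 0.137) called higher and 7 others, among them Rgs5 (-2.71 ± 0.138) and Vtn (-2.73 ± 0.115), called lower. Mural markers summed to 142 to 250 CPM in Trap and 90.1 to 125 CPM in Input. Of 10 fibroblast and meningeal markers 3 were called higher and 7 lower, with sums that overlapped (354 to 548 and 392 to 553 CPM). Oligodendrocyte precursor markers had 2 of 8 called higher and 6 lower, ependymal markers 3 and 3 of 8 tested, and Schwann cell markers 2 and 3 of 7 tested. The part of blood and vessel RNA in the results below was not tested.

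The protein classes were lists of gene symbols by family, with 457 transporters, 313 channels, 595 receptors, 783 secreted proteins and 1167 transcription factors in the annotation, and those below are the members that passed the filter on low counts. Channels had the lowest median of the 5 classes. Beside 44.4% of all genes called higher and 43.6% lower, 137 of 342 transporters tested were called higher (40.1%) and 176 lower (51.5%), with a median of -0.28. Of 234 channels 54 were higher (23.1%) and 173 lower (73.9%), with a median of -2.10. Of 425 receptors 161 were higher (37.9%) and 240 lower (56.5%), with a median of -1.12. Secreted proteins had 204 higher (43.8%) and 232 lower (49.8%) of 466, with a median of -0.36. Transcription factors had 367 higher (40.2%) and 409 lower (44.8%) of 912, with a median of -0.05. The shares called higher were thus near that of all genes for secreted proteins, transporters and transcription factors. Over 4-fold enrichment, called for 8.85% of all genes, was called for 14.0% of transporters, 10.7% of channels, 16.2% of receptors, 20.8% of secreted proteins and 8.44% of transcription factors. Over 4-fold depletion, called for 17.0% of all genes, was called for 27.2%, 51.3%, 39.8%, 33.3% and 14.9% of these classes in that order. The shares of counts were ordered differently. Secreted protein genes took a median 9.14% of the counts in Trap and 3.06% in Input, transporters 7.09% and 3.63%, and receptors 2.93% and 1.65%. For channels the medians were 2.46% and 1.91%, with no overlap between library types in any of these 4 classes, and for transcription factors 2.34% and 2.22%, with overlap.

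**Figure D1:**
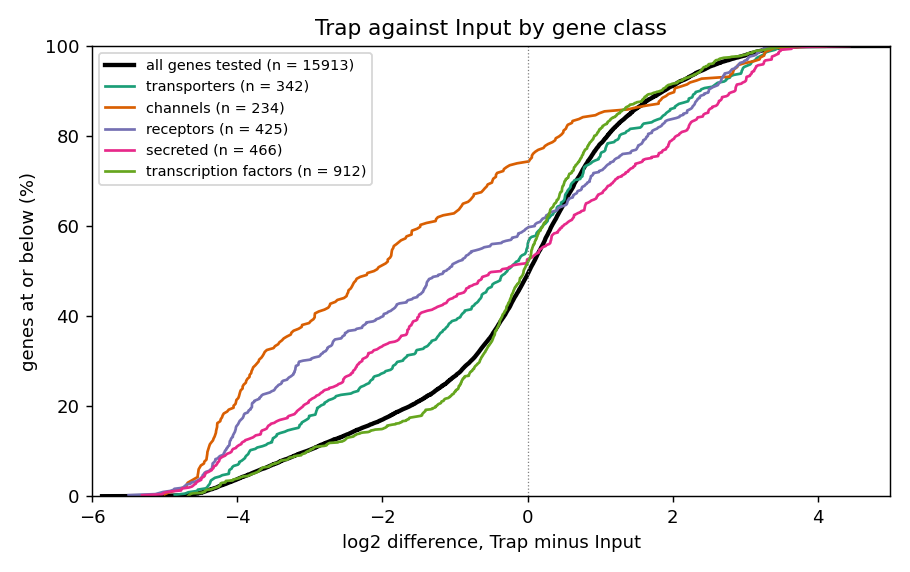
Cumulative share of genes (y axis, percent) at or below a given log2 difference between Trap and Input (x axis), for all genes tested and for the 5 classes. The curve of channels runs above that of all genes over most of the depleted range (median -2.10 against 0.02), and secreted proteins and receptors lie above it at the left and below it at the right.

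Among transporters, metal ion carriers had 14 of 28 called higher (median 0.27) and mitochondrial carriers 22 of 43 (51.2%, median 0.18), near the 44.4% of all genes. Phosphate, sulfate and fatty acid carriers had 8 of 13 (61.5%, median 0.59). Amino acid and transmitter uptake was divided, with 15 of 43 higher (34.9%) and 25 lower (58.1%). By over 4-fold, 13 were higher (30.2%, beside 8.85% of all genes) and 19 lower (44.2%, beside 17.0%). Ion pumps and flippases had 9 of 35 higher, and of 10 genes that load synaptic vesicles only Slc18b1 (1.35 ± 0.0603) was.

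Atp1b2, the glial beta subunit of the sodium pump, stood at 1900 ± 249 CPM per kilobase of exon in Trap (SD, n = 24). Its values were 923, 989.99 and 1125 CPM in Input and 5121, 7906 and 9796 CPM in Trap, without overlap, and the log2 difference was 2.95 ± 0.0733 (adjusted p 2.78e-27). Slc1a2 followed on the scale per kilobase at 934 ± 131 CPM and the GABA carrier Slc6a11 at 892 ± 85.1 CPM. There the Trap libraries of Slc1a2 (617 to 1120 CPM) overlapped those of Slc6a11 (630 to 1020 CPM), and those of Atp1b2 (1250 to 2400 CPM) lay above both.

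The largest enrichment of a transporter was that of Slc39a12, a zinc importer. It ranged from 93.5 to 113 CPM in Input (median 99.7) and from 948 to 1525 CPM in Trap (median 1181), a log2 difference of 3.59 ± 0.0669 (adjusted p 2.94e-30). Every Trap library was above every Input library. Slc7a10, which carries small neutral amino acids and D-serine, differed by 3.44 ± 0.0736, and Slc25a18, a mitochondrial glutamate carrier, by 3.41 ± 0.0566. Slc4a4, a sodium bicarbonate carrier, differed by 3.33 ± 0.12. Slc22a4, a carrier of ergothioneine, led the organic ion carriers at 3.27 ± 0.0683. Mfsd2a, which carries lysophosphatidylcholine, was higher by 3.13 ± 0.117, the fatty acid carrier Slc27a1 by 2.84 ± 0.0847 and the cholesterol exporter Abca1 by 2.38 ± 0.176. Slc2a4, the insulin-regulated glucose carrier, ranged from 4.63 to 7.24 CPM in Input (median 5.35) and from 27.3 to 48.1 CPM in Trap (median 38.9) and had the largest value of its family among genes at 10 CPM or above, 2.79 ± 0.103.

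The transporters most depleted in the class or in their own group, at 10 CPM or above, included genes known from neurons. The calcium pump Atp2b3 ranged from 124 to 141 CPM in Input (median 130.2) and from 1.82 to 8.22 CPM in Trap (median 4.28), a log2 difference of -4.86 ± 0.118. Slc32a1, which loads GABA and glycine into vesicles, was lower (-4.72 ± 0.108), as was the vesicular zinc carrier Slc30a3 (-4.56 ± 0.119). The neuronal chloride extruder Slc12a5 was lower (-4.43 ± 0.109), as were the proton-coupled sugar carrier Slc45a1 (-4.41 ± 0.098) and the potassium channel regulator Abcc8 (-4.38 ± 0.102). The bile acid carrier relative Slc10a4 was lower (-3.84 ± 0.108), as were the monoamine carrier Slc29a4 (-3.92 ± 0.105) and the mitochondrial carrier Slc25a30 (-2.32 ± 0.0964). These 9 genes were picked for their depletion, and all Trap libraries were below all Input libraries for them, as for 29.1% of all genes.

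In 7 of 11 pairs of related genes the 2 members moved in opposite directions. Of the sodium pump's beta subunits Atp1b1 ranged from 1546 to 1654 CPM in Input (median 1604) and from 61.6 to 192 CPM in Trap (median 100.4). It was lower (-3.97 ± 0.12), against the rise of Atp1b2. Among glutamate carriers Slc1a3 was higher by 3.20 ± 0.079 and Slc1a1 lower (-4.36 ± 0.096), from Input levels of 64.5 to 77 and 62.8 to 68.2 CPM. The glycine carrier Slc6a9 was higher by 2.62 ± 0.0788 and the carrier of glycinergic terminals Slc6a5 lower (-4.21 ± 0.109). Of glucose carriers Slc2a1 was higher by 1.91 ± 0.0797 and Slc2a3 lower (-2.43 ± 0.0849), and of lactate carriers Slc16a1 was higher by 1.01 ± 0.06 and Slc16a7 lower (-3.01 ± 0.121). The bicarbonate carrier Slc4a10 was lower (-4.08 ± 0.118), against the rise of Slc4a4. In 3 pairs both genes moved the same way, namely the chloride cotransporters Slc12a2 (-1.86 ± 0.0848) and Slc12a5, the endothelin receptors Ednrb (3.17 ± 0.0742) and Ednra (2.53 ± 0.108), and the matrix proteins Sparcl1 (2.99 ± 0.0588) and Sparc (3.40 ± 0.0648). The FGF receptor Fgfr3 was higher by 3.15 ± 0.0566 and Fgfr1 was not called (0.11 ± 0.0595). The SOXE transcription factor Sox9 was higher by 3.43 ± 0.0901 and Sox10, a factor of oligodendrocytes and Schwann cells, lower (-3.00 ± 0.12).

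**Figure D2:**
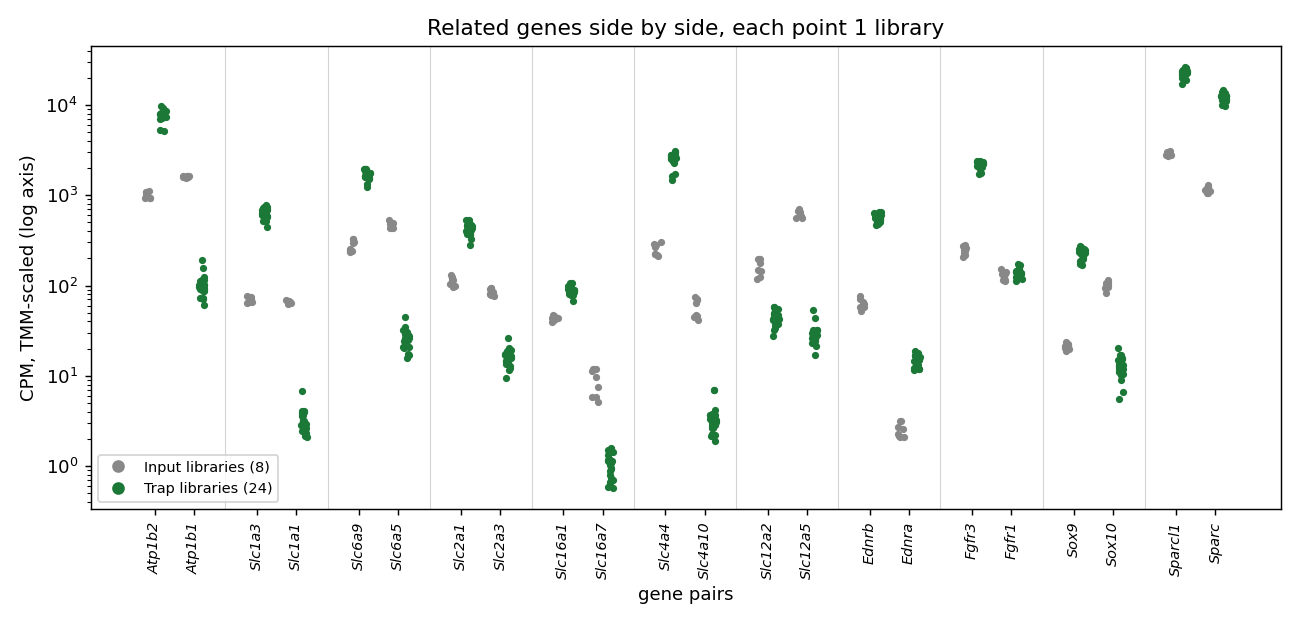
TMM-scaled CPM (y axis, log axis) of both genes of 11 related pairs (x axis), each point 1 library, grey for the 8 Input and green for the 24 Trap libraries. In the first pair the Trap libraries of Atp1b2 sit at 5121 to 9796 CPM and those of Atp1b1 at 61.6 to 192 CPM, on either side of Input.

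Of channels, potassium channels had 12 of 76 called higher (15.8%) and 63 lower (82.9%, median -2.48), beside 44.4% and 43.6% of all genes. Sodium and calcium channels had 6 of 41 higher (14.6%) and 35 lower (85.4%, median -3.36). Ligand-gated channels had 13 of 50 higher (26.0%). Gap junction and water channels had 9 of 19 higher (47.4%) and 9 lower (47.4%), near the shares of all genes. All 9 higher genes were so by over 4-fold, which is 47.4% of the group beside 8.85% of all genes. Of the 9 lower genes 7 were so by over 4-fold, which is 36.8% of the group beside 17.0% of all genes. The inward rectifier Kcnj10, the main potassium uptake channel of astrocytes, had the highest level per kilobase of this class, 1030 ± 110 CPM. Its values were 761, 799.6 and 869 CPM in Input and 4039.8, 5725 and 6503 CPM in Trap, and its log2 difference of 2.78 ± 0.0692 was smaller than that of its partner subunit Kcnj16, 3.34 ± 0.0574. Whether these 2 differences differ was not tested. The Trap libraries of Kcnj10 (747 to 1200 CPM per kilobase) overlapped those of the next channel, Ttyh1 (692 to 943 CPM per kilobase).

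Ttyh1, a tweety family protein linked to volume-regulated chloride currents, was second per kilobase (777 ± 61.4 CPM) and ranged from 483 to 583 CPM in Input (median 514) and from 4412 to 6016 CPM in Trap (median 4861). Its log2 difference was 3.26 ± 0.0474 (adjusted p 2.54e-32). The connexin Gjb6 was higher by 3.28 ± 0.0672, and Gjd2, the connexin of neuronal electrical synapses, lower (-4.55 ± 0.136). Among transmitter-gated channels the GABA-A receptor subunit Gabrg1 ranged from 16.5 to 38 CPM in Input (median 27) and from 177 to 318 CPM in Trap (median 250.5) and was higher by 3.26 ± 0.115. The glycine receptor subunit Glra1 was lower (-4.50 ± 0.107). The heat- and steroid-sensitive channel Trpm3 was higher by 2.85 ± 0.139, and the acid-sensing channel Asic1 by 1.06 ± 0.0679, the highest value among sodium and calcium channels at 10 CPM or above. Kcna1, a potassium channel of axons, was lower (-4.85 ± 0.104), as were the AMPA receptor partner Cacng3 (-4.79 ± 0.125), Tmem63c (-4.70 ± 0.116) and Ano3 (-4.29 ± 0.113).

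**Figure D3:**
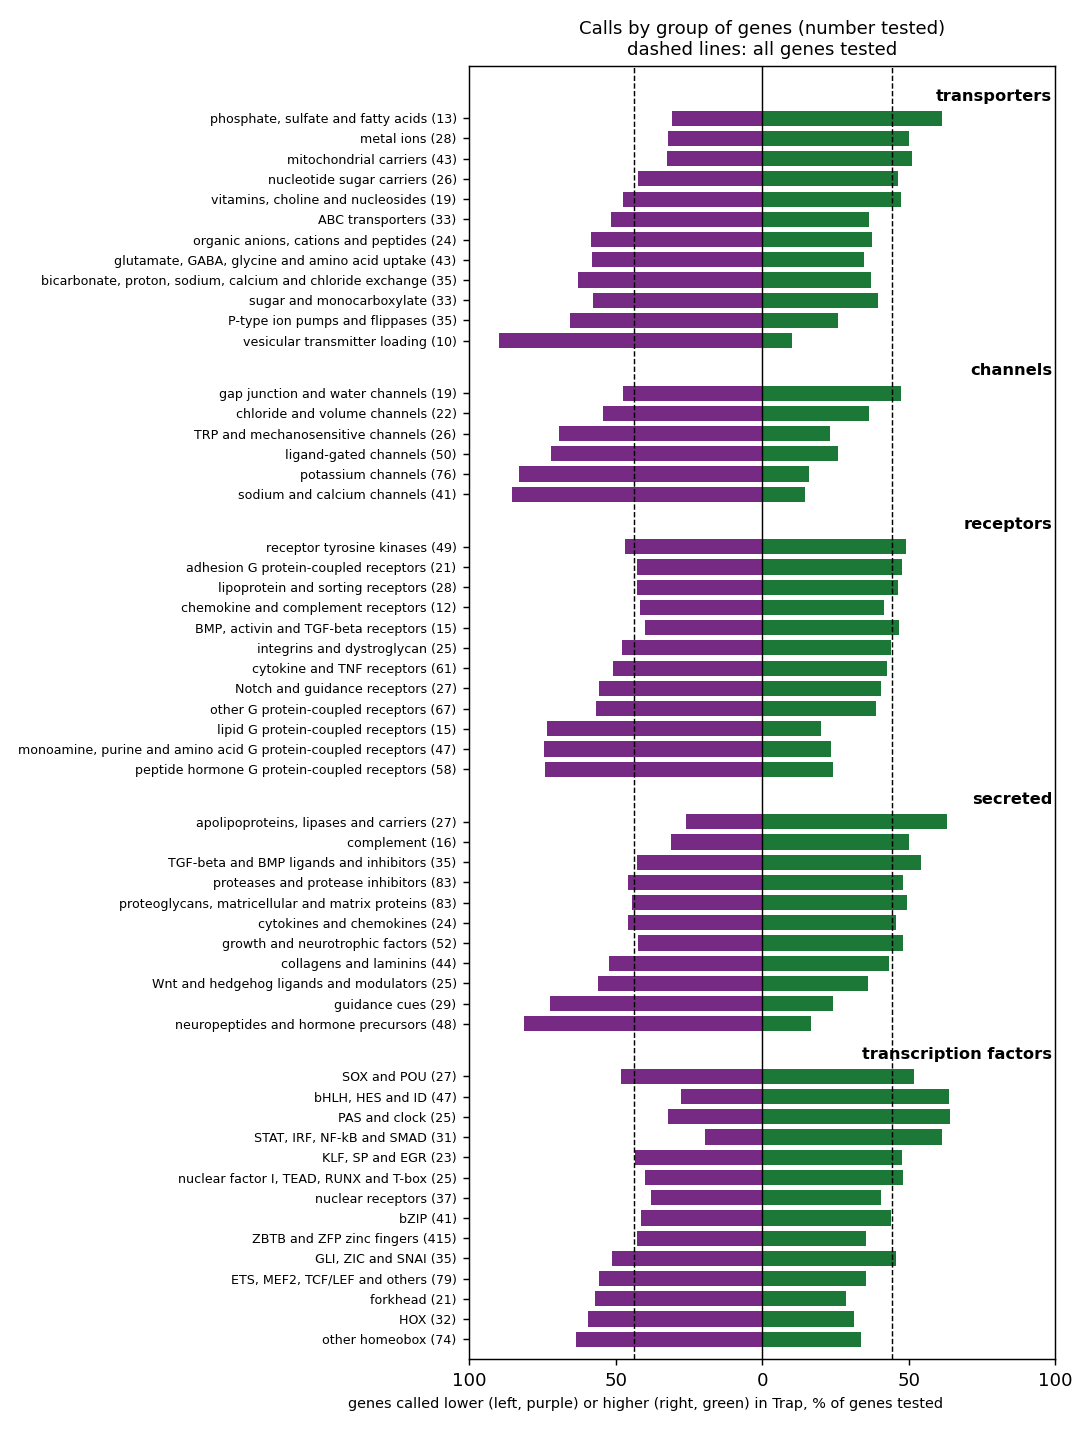
Share of the genes tested that were called higher (green, to the right) or lower (purple, to the left) in Trap, in percent, for 55 groups within 5 classes, ordered by median within a class and with the number tested in parentheses. Dashed lines mark all genes (44.4% and 43.6%). Vesicle loading, sodium and calcium channels, potassium channels and neuropeptides reach farthest to the left, and clock, bHLH and apolipoprotein groups farthest to the right.

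Receptors for transmitters and peptides were depleted for the most part. Of 58 peptide hormone receptors 43 were called lower (74.1%, median -3.86), and of 47 receptors for monoamines, purines and amino acids 35 (74.5%, median -2.87). The share of all genes called lower was 43.6%. Of 15 lipid G protein-coupled receptors 11 were lower (73.3%), and of 67 other G protein-coupled receptors 38 (56.7%). Notch and guidance receptors had 15 of 27 lower (55.6%). In some other groups the share called higher lay near the 44.4% of all genes, and 3 of these are given here. Receptor tyrosine kinases had 24 of 49 higher (49.0%) and 23 lower, integrins and dystroglycan 11 of 25 (44.0%) and 12, and cytokine and TNF receptors 26 of 61 (42.6%) and 31. The medians of these 3 groups lay between -0.51 and 0.11.

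Gpr37l1, a G protein-coupled receptor of glia (ENSMUSG00000026424.8, chromosome 1, 135160234 to 135167681), stood out per kilobase at 1330 ± 97.3 CPM, above every Trap library of the next receptor, the neurotensin receptor Ntsr2 (338 ± 44.1 CPM). Its values were 252, 289.9 and 349 CPM in Input and 2539.9, 3054 and 3402 CPM in Trap, a log2 difference of 3.36 ± 0.0602 (adjusted p 1.3e-30). Fgfr3 followed at 305 ± 24.3 CPM per kilobase, and its libraries overlapped those of Ntsr2. The largest difference was that of Tlr3, the sensor of double-stranded RNA, which ranged from 7.48 to 12.1 CPM in Input (median 10.4) and from 78.8 to 119 CPM in Trap (median 105) and was higher by 3.38 ± 0.0906. The sphingosine 1-phosphate receptor S1pr1 ranged from 66.3 to 75.2 CPM in Input (median 71) and from 569 to 757 CPM in Trap (median 680.3) and was higher by 3.25 ± 0.0502. The epidermal growth factor receptor Egfr was higher by 3.25 ± 0.131 and Lgr6, which binds R-spondins, by 3.22 ± 0.13. The adenosine receptor Adora2b was higher by 3.21 ± 0.0674, the BMP receptor Bmpr1b by 3.12 ± 0.0889, the adhesion receptor Adgrg6 by 3.03 ± 0.113 and the semaphorin receptor Plxnb1 by 2.82 ± 0.102. The integrin Itgb8, which activates latent TGF-beta, was higher by 2.91 ± 0.154, Lrp4 by 2.80 ± 0.129 and the scavenging chemokine receptor Ackr3 by 2.09 ± 0.0867. The receptors named here were picked for large enrichment or a high level, and Trap and Input did not overlap for any of them. All Trap libraries lay above all Input libraries for 27.5% of all genes.

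Among receptors at 10 CPM or above F2rl2, a protease-activated receptor, was lowest at -4.92 ± 0.107, with 9.41, 12.2 and 16.7 CPM in Input and 0.146, 0.41 and 1.11 CPM in Trap. The serotonin receptor Htr1a was lower (-4.88 ± 0.135), as was the muscarinic receptor Chrm3 (-4.72 ± 0.132). The cannabinoid receptor Cnr1 was lower (-4.11 ± 0.127), as were the GDNF receptor kinase Ret (-4.11 ± 0.0999) and its partner Gfra4 (-4.06 ± 0.115). The microglial receptors Cx3cr1 (-4.24 ± 0.12) and Itgam (-3.85 ± 0.113) and the TGF-beta receptor Tgfbr2 (-3.16 ± 0.0991) were lower as well. So were the sorting receptor Sorcs3 (-3.77 ± 0.0825), the orphan receptor Gpr101 (-4.39 ± 0.136), the death receptor Tnfrsf21 (-2.27 ± 0.0599) and the adhesion receptor Adgrf5 (-2.49 ± 0.11).

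Secreted proteins formed the class with the most RNA in Trap. Apoe, the lipid carrier of astrocyte particles (ENSMUSG00000002985.16, chromosome 7, 19696109 to 19699188), reached 9000 ± 1380 CPM per kilobase, and Sparcl1, a matricellular protein of synapse formation, 7860 ± 747 CPM. Their ranges overlapped (7370 to 14800 and 5770 to 8970 CPM per kilobase). Apoe had 1433, 1677 and 2064 CPM in Input and 15765, 19059 and 31559 CPM in Trap, a log2 difference of 3.49 ± 0.0856, and no overlap between library types. Cst3, the protease inhibitor cystatin C, came next at 3590 ± 535 CPM per kilobase, with libraries that overlapped those of Sparc at 3220 ± 316 CPM, and differed from Input by 2.87 ± 0.0779. Apolipoproteins, lipases and carriers had 17 of 27 called higher (63.0%) and 7 lower (25.9%), with a median of 0.94, beside 44.4% and 43.6% of all genes. Proteoglycans and matrix proteins had 41 of 83 higher (49.4%) and 37 lower (44.6%). By over 4-fold, 27 were higher (32.5% of the group, beside 8.85% of all genes) and 22 lower (26.5%, beside 17.0%).

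**Figure D4:**
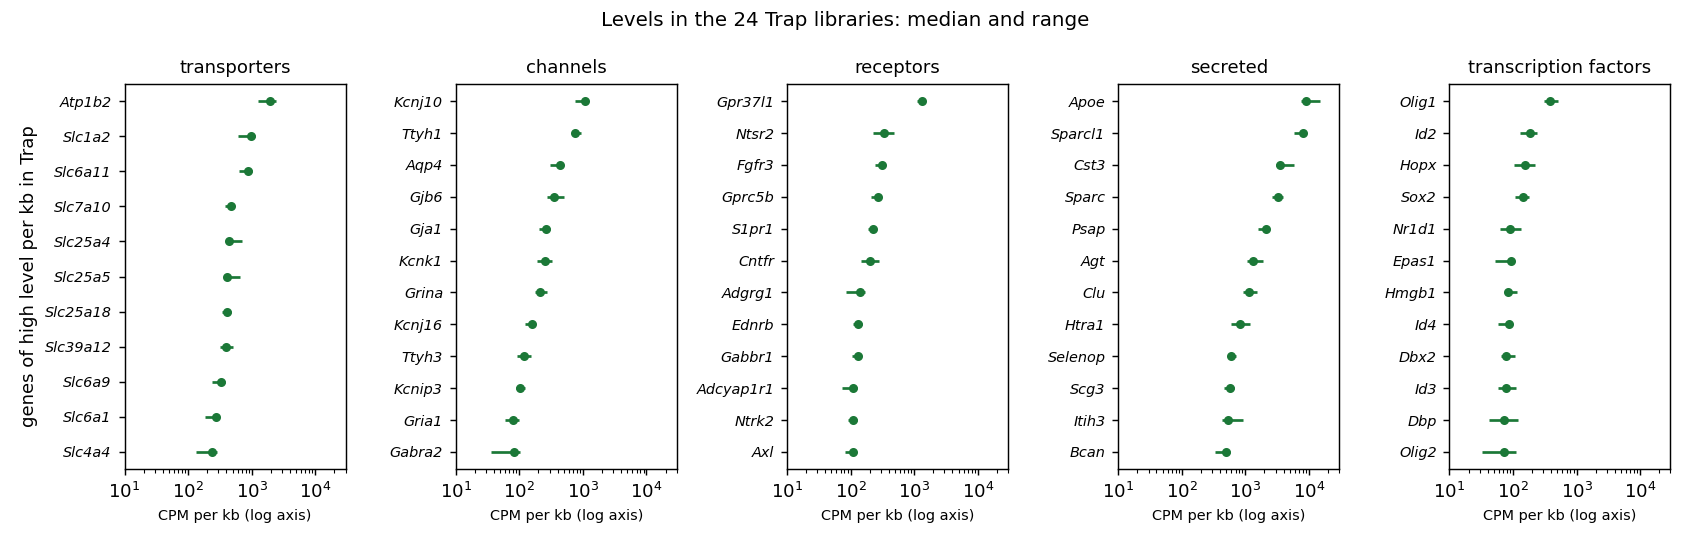
CPM per kilobase of exon (x axis, log axis) of up to 12 genes of each class with high means in Trap, shown as the median (point) and the range (line) of 24 Trap libraries. Apoe and Sparcl1 are the highest of all, with means of 9000 and 7860, and Olig1, the first of the transcription factors, is at 386.

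The angiotensin precursor Agt ranged from 189 to 244 CPM in Input (median 217) and from 2033 to 3576 CPM in Trap (median 2534) and was higher by 3.64 ± 0.0979. The protease inhibitor subunit Itih3 ranged from 135 to 197 CPM in Input (median 162) and from 1562 to 3299 CPM in Trap (median 1911) and was higher by 3.64 ± 0.107. Trap and Input libraries did not overlap for either gene. Igfbp2, which binds insulin-like growth factors, was higher by 3.47 ± 0.119, fibulin Fbln1 by 3.46 ± 0.127 and midkine, Mdk, by 3.36 ± 0.0804. The Wnt modulator Sfrp5 was higher by 3.37 ± 0.105, Ltbp1, which stores latent TGF-beta, by 3.25 ± 0.105 and the repulsive cue Sema3b by 3.09 ± 0.0874. The chemokine Cxcl14 was higher by 3.01 ± 0.0755 and complement C3 by 2.74 ± 0.119, whereas C1qb, a microglial complement gene, was lower (-4.20 ± 0.146), as was the chemokine Cxcl12 (-1.63 ± 0.0869). The collagen gene Col1a2 ranged from 21.1 to 24.9 CPM in Input (median 22.4) and from 150.2 to 312 CPM in Trap (median 223) and was higher by 3.28 ± 0.09. Its partner chain Col1a1 had a mean of 4.15 CPM in Input and 7.48 CPM in Trap (0.84 ± 0.132), and Col3a1, another fibroblast collagen, was lower (-1.32 ± 0.248).

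Of 48 neuropeptides and hormone precursors 39 were called lower (81.2%, median -3.94) and 8 higher (16.7%), beside 43.6% and 44.4% of all genes. Guidance cues were lower in 21 of 29 (72.4%). The somatostatin gene Sst ranged from 49.6 to 93.8 CPM in Input (median 64.2) and from 0.543 to 8.71 CPM in Trap (median 1.98) and was lower (-4.99 ± 0.174). The substance P gene Tac1 (-5.04 ± 0.149) and neurotensin, Nts (-5.02 ± 0.16), were the lowest of all genes at 10 CPM or above. The neuregulin Nrg3 was lower (-4.45 ± 0.111), as were the ephrin Efna3 (-4.53 ± 0.115) and the proteoglycan Spock1 (-4.60 ± 0.127). The follistatin relative Fstl5 was lower (-4.25 ± 0.106), as were the transmembrane collagen Col25a1 (-4.25 ± 0.125) and the Wnt inhibitor Sfrp1 (-2.97 ± 0.088). Ptgds, a prostaglandin synthase made by oligodendrocytes and meninges, ranged from 289 to 446 CPM in Input (median 340.1) and from 8.1 to 37.6 CPM in Trap (median 10.9) and was lower (-4.77 ± 0.186).

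Transcription factors as a class were close to all genes, of which 44.4% were called higher and 43.6% lower. The bHLH, HES and ID group had 30 of 47 called higher (63.8%, median 0.63), PAS and clock genes 16 of 25 (64.0%, median 0.61) and STAT, IRF, NF-kB and SMAD genes 19 of 31 (61.3%, median 0.54). Whether these groups differ from all genes was not tested. HOX genes, which mark position along the cord, were lower in 19 of 32 (59.4%) and higher in 10, none of these by over 4-fold. Other homeobox genes were lower in 47 of 74 (63.5%). The 415 zinc finger genes had a median of -0.07, and 2 were higher by over 4-fold. A change of scaling moves all genes by nearly the same amount, so medians relative to that of all genes hardly moved. Their signs were the same for all 55 groups under both other scalings, which is no separate check of the groups.

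Sox9, a factor that sets and keeps glial fate (ENSMUSG00000000567.5, chromosome 11, 112782224 to 112787760), ranged from 18.7 to 23.9 CPM in Input (median 21.3) and from 167 to 271 CPM in Trap (median 238) and was higher by 3.43 ± 0.0901 (adjusted p 1.16e-26). Its progenitor partner Sox2 ranged from 23.5 to 35.7 CPM in Input (median 28.8) and from 225 to 363 CPM in Trap (median 299) and was higher by 3.35 ± 0.0845. The homeobox gene Dbx2, known from patterning of the embryonic cord, ranged from 19.4 to 32.2 CPM in Input (median 25.4) and from 225 to 372 CPM in Trap (median 272) and was higher by 3.45 ± 0.0741. None of these 3 genes overlapped between library types. All Trap libraries lay above all Input libraries for 27.5% of all genes. The forkhead gene Foxb1 was higher by 3.49 ± 0.119, at 1.14, 1.71 and 2.17 CPM in Input and 13, 18.7 and 25.7 CPM in Trap. Rfx4 was higher by 3.29 ± 0.0758, the inhibitor of differentiation Id2 by 3.27 ± 0.103, the hedgehog effector Gli3 by 3.03 ± 0.0894 and the growth coactivator Yap1 by 3.03 ± 0.052. The glucocorticoid target Klf15 was higher by 1.85 ± 0.0972. Rorb was higher by 2.78 ± 0.126, Npas3 by 2.64 ± 0.104, Smad3 by 2.64 ± 0.0782 and the oxidative stress regulator Nfe2l2 by 2.32 ± 0.0622. Per kilobase Olig1 was highest in Trap, at 386 ± 51.8 CPM, above every library of the next factor, Id2 (182 ± 29.6 CPM). It was higher there than in Input by 1.89 ± 0.0614, although it is best known from the oligodendrocyte lineage. Olig2 was higher by 1.64. The homeobox gene Hopx followed Id2 per kilobase (152 ± 22.2 CPM) and was higher by 1.71 ± 0.0762.

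Depleted factors included those of neuron types of the cord and of other glia. Lmx1b, a factor of dorsal excitatory neurons, was lower (-4.66 ± 0.125), as was the inhibitory neuron factor Pax2 (-4.48 ± 0.116). Ebf3 was lower (-4.36 ± 0.101), as was the neuronal repressor Scrt1 (-4.33 ± 0.0888). The progesterone receptor Pgr was lower (-4.35 ± 0.108). Hoxb9 ranged from 83 to 121 CPM in Input (median 86.3) and from 4.54 to 12.8 CPM in Trap (median 6.86) and was the lowest HOX gene at 10 CPM or above, at -3.67 ± 0.0974, while Hoxc5 was higher by 1.86 ± 0.0917. Nfic, a member of the nuclear factor I family, was lower (-0.81 ± 0.0457), as were Foxp1 (-1.08 ± 0.0904) and the activity-induced gene Egr1 (-3.22 ± 0.121). The HIF hydroxylase Hif1an, counted with the clock group, was lower (-1.20 ± 0.0612).

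Across all genes at 10 CPM or above the largest enrichment was that of Heph, a copper-containing oxidase that lets iron leave cells (ENSMUSG00000031209.14, chromosome X, 96455359 to 96574485). It ranged from 15.2 to 24.2 CPM in Input (median 16.2) and from 164 to 327 CPM in Trap (median 239) and was higher by 3.74 ± 0.127, without overlap. Aldh1l1 came second. Igsf1, an immunoglobulin membrane protein, was higher by 3.65 ± 0.0975, the fatty acyl-CoA synthetase Acsbg1 by 3.64 ± 0.0728 and Btbd17 by 3.64 ± 0.0928. Etnppl, which breaks down phosphoethanolamine, was higher by 3.60 ± 0.0867, the sulfate donor synthase Papss2 by 3.60 ± 0.0915 and the phosphatase Alpl by 3.59 ± 0.0993. Over 8-fold enrichment was called for 327 genes (2.05%) and over 8-fold depletion for 1637 (10.3%). Other genes sat near equality. The thyroid hormone receptor Thra ranged from 264 to 354 CPM in Input (median 297) and from 267 to 369.7 CPM in Trap (median 309.8), the calcium pump Atp2a2 from 692 to 801 CPM in Input (median 730.4) and from 556 to 966 CPM in Trap (median 778) and the latrophilin Adgrl1 from 209 to 266 CPM in Input (median 226) and from 181 to 279 CPM in Trap (median 252). Their differences of 0.02 ± 0.0519, 0.06 ± 0.0649 and 0.10 ± 0.0525 were not called, and their libraries overlapped.

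The design also allowed a test of whether the difference between Trap and Input was itself different in males and females. edgeR called 2504 of 15913 genes (15.7%), 1633 with a larger Trap-minus-Input value in males (10.3%) and 871 with a smaller one (5.47%), and 241 of them differed by over 2-fold between the sexes. The rise of Slc1a2 was larger in males by 0.54 ± 0.162 and that of Aqp4 by 0.50 ± 0.112 on the log2 scale. For Slc1a2 the Input values were 1466 to 1603 CPM in females and 1046 to 1129 CPM in males, without overlap. In Trap they were 8099 to 13949 CPM in females and 8172 to 14750 CPM in males, which overlapped. The retinoid-related receptor Rorb differed by 0.92 ± 0.146 and the integrin Itgb8 by 0.90 ± 0.188. In the other direction the fatty acid carrier Slc27a4 differed by -0.38 ± 0.0872 and the thyroid hormone receptor Thra differed by -0.31 ± 0.0854. Aldh1l1 itself was not called (-0.10 ± 0.119).

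These differences moved with the GC content of transcripts. Of the genes tested, 9732 with at least 5 CPM in both library types were split into 5 equal bins by the mean GC content of their annotated transcripts. In the bin of lowest GC 980 of 1947 genes had a larger value in males and 3 a smaller one, and in the bin of highest GC 3 and 410 of 1947. Across 15794 genes, which are not independent replicates, Pearson's r of the sex difference with GC content was -0.695. Within Input, high-GC genes relative to low-GC genes stood at -0.426 to -0.295 (log2) in the 4 female libraries and at 0.195 to 0.467 in the 4 male libraries. In Trap the 12 female libraries lay at -0.116 to 0.094 and the 12 male ones at -0.065 to 0.258, which overlapped. After each library's own GC trend was removed, a choice made after seeing the data, 672 genes were called, 455 and 217. Slc1a2 (0.63 ± 0.163), Aqp4 (0.49 ± 0.108), Rorb (0.52 ± 0.13) and Itgb8 (0.67 ± 0.166) were still called then, and Slc27a4 (-0.20 ± 0.0853, adjusted p 0.216) and Thra (-0.08 ± 0.0826, adjusted p 0.718) were not, by edgeR. The number also moved with single libraries, from 1456 genes without Male 3 weeks Input and 1462 without Male 5 weeks Input to 3955 without Male 7 weeks Trap 2. The part of library preparation was not tested, and a sex difference of the tissue and one of the Input libraries cannot be told apart. The same removal left 13996 of 15794 genes called for Trap against Input, against 13992 of 15913 without it. It was made within each library type, so it could not remove a GC trend shared by all libraries of a type.

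**Figure D5:**
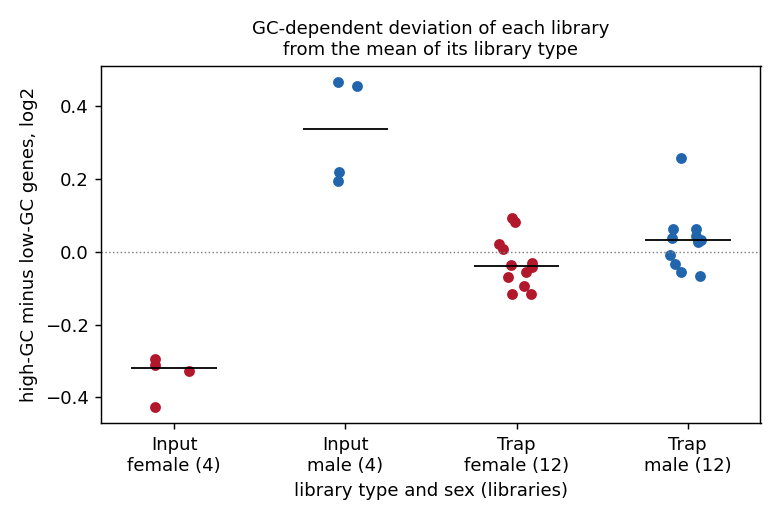
Median log2 level of genes in the highest of 5 GC bins minus that of the lowest, each relative to the mean of its library type (y axis), by library type and sex (x axis). Each point is 1 library and black lines are medians. Female Input libraries lie at -0.426 to -0.295 and male ones at 0.195 to 0.467, and Trap libraries of both sexes overlap around 0.

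Enrichment did not differ detectably between injury states. The joint test of 3, 5 and 7 weeks against no injury called 0 of 15913 genes (0.0%) by edgeR and 0 by DESeq2, with 217 genes at an unadjusted p under 0.05 and a smallest adjusted p of 0.0956. There were 2 Input libraries per state, a female and a male one. The fit held no term for a sex difference of enrichment, so such differences counted as spread. The 217 genes are a smaller share than the 0.05 that chance gives. The test was therefore conservative and could miss differences. Leaving out Male 3 weeks Input, Female 5 weeks Trap 2, Male uninjured Trap 2 or Male 7 weeks Trap 2 gave 1 call, and leaving out any other library gave 0.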

How the data were processed

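Whole lumbar cord (Input) and anti-HA pull-down RNA (Trap) were sequenced after poly-A selection. The authors deposited expected counts per gene, made with FastQC, Trim Galore, STAR and RSEM on GRCm38, per the submitters' processing notes. Versions, annotation release and counting strand are not given in the sources used here. Of the 55938 genes 797 had no symbol, and 6.21% to 8.53% of values per library were not whole.

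Counts were rounded, filtered with filterByExpr, scaled by TMM and fitted over all 32 libraries with edgeR 4.0.16 (robust quasi-likelihood, R 4.3.3), with library type and the 8 title groups as terms. Differences between sexes and between injury states were interaction terms. The adjustment for multiple tests was that of Benjamini and Hochberg across the 15913 genes tested, with a threshold of 0.05. CPM are TMM-scaled. Levels per kilobase used the summed exon length. The scripts were tested on simulated data.

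Members, lists and tests were chosen with earlier results of these data known. Gene symbols defined the classes, and several symbol patterns were corrected once the table was seen. Named genes were the 4 markers, both genes of 11 pairs, and called genes with the largest differences each way: 10 each way over all genes, 5 upward and 3 downward per class, and 1 each way per group, at 10 CPM or more. Further named genes were the 3 highest per kilobase and the 2 most abundant without a call in each class, and up to 5 each way for the sex difference. A few genes that this rule names are not reported here. Markers of other cells, and genes used to describe them, follow lists by cell type. Alternatives were DESeq2 1.42.0 and its size factors, library totals, no filter, glmTreat (limma 3.58.1 loaded with edgeR), a replicate block, no title groups, subsets by sex or injury, leaving out each library, and, chosen after seeing the data, offsets for transcript GC content and leaving out the 2 libraries that stood apart. Zfp968, Zfp976, Zfp97, Mup3, Serpinb1b and the alpha globins have near-identical copies, so their counts are uncertain, and reads of overlapping genes cannot be told apart without the strand.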

Additional observations from a re-analysis of the deposited data

Results flagged for a closer look

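In 5 of the 167 named genes 1 of the 8 Input libraries lay apart from the other 7 by Dixon's test, which chance gives in about 1 of 20 sets. Male 3 weeks Input was the high library in 4 of them. The stress-induced factor Atf3 stood there at 3.82 CPM against 0.304 to 1.32 CPM in the others, and the polycystin relative Pkd1l2 at 4.97 CPM against 1.87 to 3.11 CPM. Spock1 stood at 300 CPM against 271 to 284 CPM, and Ttyh1 at 583 CPM against 483 to 527 CPM. Klf15 was high in Female uninjured Input, at 26.4 CPM against 14.5 to 18.8 CPM.

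For 29 named genes edgeR's interaction test called the Trap-minus-Input difference unequal between males and females, 18 with the larger value in males and 11 with the smaller. Of these, 10 were named for that difference. Among the other 157 named genes 19 were called (12.1%), beside 15.7% of all genes tested. Larger values, male minus female on the log2 scale, were those of astrocyte genes at 0.296 for Gja1, 0.501 for Aqp4, 0.536 for Slc1a2, 0.385 for Sox2, 0.542 for Tlr3, 0.457 for Bmpr1b, 0.74 for Gabrg1, 0.9 for Itgb8, 0.625 for Trpm3 and 0.918 for Rorb. Kitl, the ligand of the Kit receptor, had 0.735, Pgr 0.693 and Slc16a7 0.842. Low genes had 1.63 for Ccdc18 and 2.04 for Sycp3, and zinc finger genes with near-identical copies 2.29 for Zfp968, 1.74 for Zfp97 and 2.23 for Zfp976. Smaller values were -0.325 for Ano10, -0.311 for Fgfr1, -0.334 for Hif1an, -0.344 for Rxra, -0.376 for Slc27a4 and -0.312 for Thra. Rarer transcripts had -1.65 for Atf3, -1.54 for Cfap65, -1.84 for Mup3, -2.26 for Pkd1l2 and -1.65 for Vav1. With GC offsets 12 of the 29 were still called and 17 were not, and 1, Gabrg1, changed sign, to -0.16 ± 0.102. Among libraries numbered 1, paired by title group, 21 were called and 8 were not.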

How the results depend on the processing

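Over the 32 fits that each left out 1 library, edgeR called 13868 to 14025 genes, 6986 to 7073 higher and 6882 to 6969 lower. For the sex difference the range was 1456 to 3955 genes, with 1104 to 2080 higher and 351 to 1875 lower in males, and for injury states 0 to 1. The lowest counts for the sex difference came without Male 3 weeks Input or Male 5 weeks Input and the highest without Male 7 weeks Trap 2. Signs turned in some of these fits for Ano10 (-0.0011 to 0.074), Kitl (-0.092 to 0.088), Thra (-0.0085 to 0.056), Tmem63b (-0.012 to 0.047) and Zfp976 (-0.34 to 0.13), none of them called.

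The labels do not say whether replicate numbers pair libraries, so the numbers were treated as names. No Input has a number other than 1. Deviations of the Trap and Input libraries numbered 1 correlated at -0.247 to 0.197 over the 8 title groups. That can neither show nor exclude pairing, because Trap deviations were taken within a title group and Input deviations over all 8 Input libraries. With a replicate block of libraries numbered 1, 4359 genes were called for the sex difference, 2149 of them lower, and Kitl stood at 0.023. With the number as an additive block, injury states had 1 call and Kitl stood at 0.038.

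Without a filter 6939 genes were lower by over 2-fold, 496 had a smaller value in males, and Kitl stood at 0.021. glmTreat called 6901 genes, 3001 higher and 3900 lower, because its test requires more than a 2-fold difference. DESeq2's test gave 6424 genes lower by over 2-fold. GC offsets left 672 genes for the sex difference (455 and 217), with Kitl at 0.0031. Library totals alone gave 2265 genes higher by over 2-fold and 236 transcription factors called higher. Calls split 34.2% to 65.8% there, 47.1% to 52.9% with size factors and 50.4% to 49.6% with TMM. Relative to all genes, medians of 4 of 55 groups changed sign with females alone and 7 with males alone. Where no value above shows it, the cause was not tested.

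Genes near equality changed sign with the scaling. With DESeq2 size factors the values were -0.0032 for Adgrl1, -0.068 for Ano10, -0.045 for Atp2a2, -0.0078 for Rxra, -0.069 for Slc30a9, -0.079 for Thra, -0.085 for Tmem63b and -0.046 for Wnt5a. DESeq2's test gave -0.0038, -0.068, -0.045, -0.0085, -0.069, -0.080, -0.085 and -0.046 in that order. Library totals gave -0.37, -0.44, -0.41, -0.37, -0.44, -0.45, -0.45 and -0.41, and -0.36 for Fgfr1. Uninjured libraries alone gave 0.016 for Kitl, -0.10 for Wnt5a and 0.23 for Zfp976. Females alone gave -0.0081 for Slc30a9, -0.0024 for Wnt5a and -0.0010 for Zfp968. Males alone gave -0.15 for Ano10, -0.065 for Fgfr1, 0.38 for Kitl, -0.097 for Rxra, -0.15 for Thra, -0.13 for Tmem63b and 1.357 for Zfp976. Without the 2 libraries that stood apart Kitl was at 0.029. Depth limits genes near 1 CPM, and 8 Input libraries limit the sex and injury tests.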
